A study of Mus musculus with 6 samples.

Results

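Adrenergic receptors are the cell surface receptors for noradrenaline and adrenaline. Of 8 receptor genes looked for by symbol in the array annotation, 2 had a row of their own, Adra1b and Adra2c, and these stand among 19938 genes tested. The other 6 (Adra1a, Adra1d, Adra2a, Adra2b, Adrb1 and Adrb3) had no row listed under a single symbol in the annotation used and were not analysed here. The receptor family as a whole is therefore not described. Each of the measured genes had 1 row, with the identifiers 10385353 for Adra1b and 10521383 for Adra2c.

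The samples were mouse bone marrow cells on Affymetrix Mouse Gene ST arrays, which read each gene with probes along its transcript. Scf-GFP+ cells (3 arrays) came from young adult C57BL/6 mice carrying 1 copy of a green fluorescent protein knock-in at the stem cell factor gene, Kitl, and were sorted on that fluorescence in a double sort. Whole bone marrow cells (3 arrays) came from young adult wild-type C57BL/6 mice and were sorted without a marker. Each array carried amplified RNA from 5000 cells. The labels call the samples independent aliquots and do not name separate animals, so each p-value covers the spread among these arrays only, which may be partly technical. Genotype and sorting changed together with the cell population and cannot be told apart from it.

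Sympathetic nerve fibres run along blood vessels into the marrow and release noradrenaline there, and beta-type receptors on stromal cells are known to lower the stromal output of the chemokine Cxcl12. The receptors fall into classes by the G protein they engage. Adra1b encodes the alpha-1B receptor, which acts through Gq and related proteins on phospholipase C, inositol trisphosphate receptors and protein kinase C. Adra2c encodes the alpha-2C receptor, which acts through Gi and Go proteins and holds adenylyl cyclase down. Beta receptors act in the opposite direction, through Gs, adenylyl cyclase, cyclic AMP and protein kinase A.

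The arrays carried the cells their labels name, with reservations. Kitl was higher in Scf-GFP+ cells by 5.57 ± 0.22 on the log2 scale (standard error, SE), which follows from the sort and checks the labels. All 8 stromal markers were called higher, and lower calls went to all 8 pan-blood and 8 of 10 neutrophil markers. Of 8 endothelial markers, 3 were called higher and 1 lower. Scf-GFP+ replicate 1 stood apart in neutrophil transcripts, with a mean log2 level of 9.60 over 10 markers against 5.89 and 6.07 in replicates 2 and 3 and 12.07 to 12.14 in whole marrow. The arrays were also of mixed sex: Xist, an RNA made in female cells, stood at 11.50 and 11.81 on the first pair of Scf-GFP+ arrays and at 4.99 to 5.10 on the other 4 arrays. A fit with a term for this split, called the sex-linked term, was among the alternatives. It in effect sets Scf-GFP+ replicate 3 alone against whole marrow, so sex cannot be told apart from that array.

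Neither measured receptor gene differed detectably between Scf-GFP+ cells and whole marrow. A gene was called when limma's Benjamini-Hochberg adjusted p over all genes was below 0.05 and the difference at least 2-fold, and this held for 16.9% of all genes tested, with 9.01% above whole marrow and 7.89% below it. Of the 2 receptor genes, limma called 0, and 0 had an unadjusted p below 0.05. For neither gene were the arrays of the groups apart without overlap, as they were for 45.4% of all genes tested.

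The log2 values of Adra1b were 5.57, 5.95 and 5.51 for Scf-GFP+ cells (replicates 1, 2 and 3) and 5.55, 5.63 and 5.63 for whole marrow, as deposited. Scf-GFP+ replicate 2 was the highest of the 6 arrays and replicate 3 the lowest, so the whole marrow values lay inside the range of the Scf-GFP+ values. The means were 5.68 ± 0.24 (SD, n = 3) and 5.60 ± 0.05 (SD, n = 3). The difference, Scf-GFP+ minus whole marrow, was 0.08 ± 0.14 SE on the log2 scale (limma adjusted p = 0.725). Its moderated 95% interval ran from -0.26 to 0.42, which is a ratio of 0.834 to 1.34. Without Scf-GFP+ replicate 2 the difference was -0.06 (limma adjusted p = 0.759, from 0.511 to 0.872 over the alternatives), so its sign rests on that array.

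Adra2c measured 5.75, 5.58 and 5.80 in the Scf-GFP+ arrays and 5.76, 5.69 and 5.76 in whole marrow. Here Scf-GFP+ replicate 2 was the lowest array and replicate 3 the highest, and the groups again overlapped. The means were 5.71 ± 0.12 (SD, n = 3) and 5.74 ± 0.04 (SD, n = 3). The difference was -0.03 ± 0.11 SE (limma adjusted p = 0.864), with a 95% interval of -0.28 to 0.22, a ratio of 0.822 to 1.17. It turned to 0.04 without Scf-GFP+ replicate 2 (limma adjusted p = 0.854, from 0.686 to 0.942 over the alternatives). Both intervals exclude a 2-fold difference in these arrays' values in either direction.

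**Figure D1:**
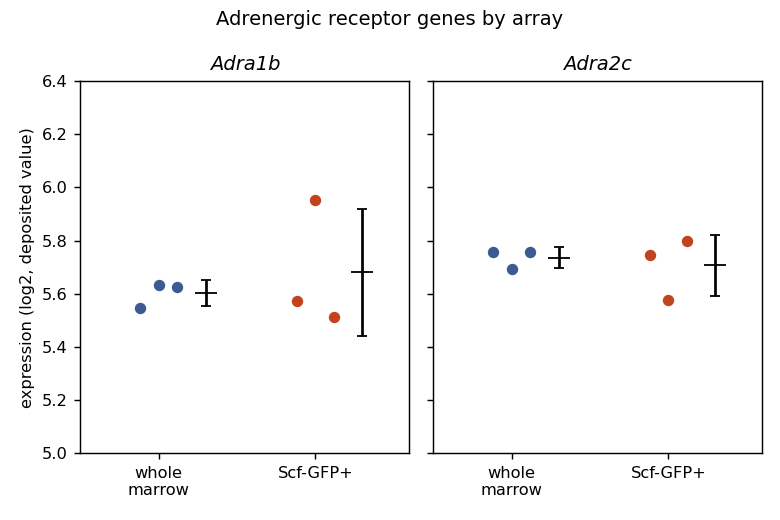
Deposited log2 expression of Adra1b and Adra2c on each array (points; 3 whole marrow arrays in blue, 3 Scf-GFP+ arrays in red), with the mean and SD of each group in black. The groups overlap for both genes, and Scf-GFP+ replicate 2, the middle red point, is the highest array for Adra1b and the lowest for Adra2c.

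Both genes lay low in the range of the arrays. Adra1b stood between the percentiles 23.8 and 33.2 of all genes on the 6 arrays, and Adra2c between 26.1 and 30.3. The deposited values carry no detection call and arrays lose resolution at low signal, so a ratio in this range may be smaller than that of the transcripts, and a low value does not show that a transcript is absent. In bulk samples, fewer expressing cells and less RNA per cell cannot be told apart.

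Most genes differed by more. Of all genes tested, 82.8% had a larger absolute difference than Adra1b and 93.8% a larger one than Adra2c. The 3 genes whose values, centred on their own mean, followed those of Adra1b most closely over the 6 arrays were 2310034C09Rik, Mir488 and Wdr20rt, at root mean square distances of 0.032, 0.042 and 0.046 on the log2 scale. Their own differences were 0.05, 0.06 and 0.08. As many as 8165 genes lay within 0.25 of Adra1b by the same measure, so closeness to it singles out no gene.

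The nearest relatives of the adrenergic receptors, the receptors for dopamine, serotonin, histamine, acetylcholine (muscarinic) and trace amines, showed no call either. Of 27 such genes, limma called 0 higher and 0 lower, while 0 higher and 5 lower had an unadjusted p below 0.05. Their median difference was -0.16, beside -0.08 for all genes tested, and 25 of 27 differences were below 0. The median of all genes was itself below 0, and the share of all genes below 0 was not counted. A lean in that direction is therefore not shown to be particular to these receptors. Hrh2, the histamine receptor linked to cyclic AMP, had the smallest adjusted p of the set with a difference of -0.49 ± 0.11 SE (limma adjusted p = 0.0144), short of the 2-fold minimum. Drd2, a dopamine receptor, had the largest absolute difference, -0.61 ± 0.23 (adjusted p = 0.104). No arrays of the groups overlapped for 8 of the 27 genes, each lower in Scf-GFP+ cells, where 26.4% of all genes did so in that direction.

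**Figure D2:**
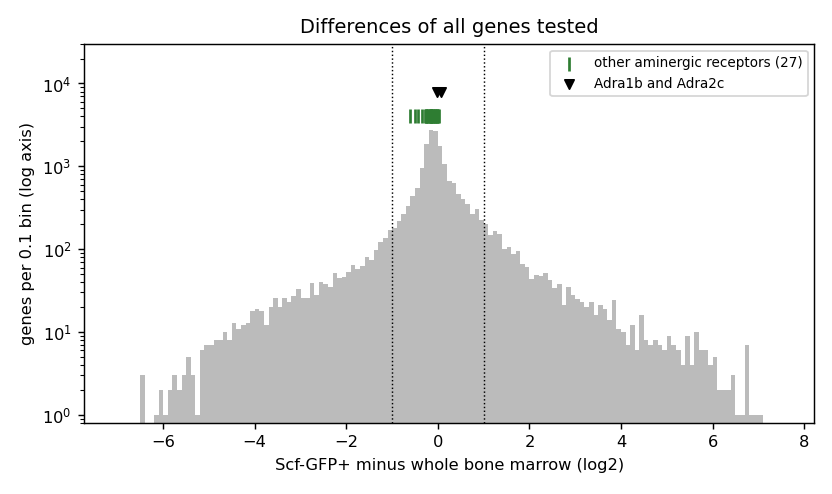
Distribution of the difference Scf-GFP+ minus whole bone marrow (log2) over 19938 genes, with the number of genes per bin on a log axis and dotted lines at the 2-fold minimum. Black triangles mark Adra1b (0.08) and Adra2c (-0.03) and green ticks the 27 other aminergic receptors, which lie between -0.61 and 0.03. Marks are placed at a fixed height that has no meaning.

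Single genes around the receptors, upstream and downstream of them, did pass the test. In 8 lists of genes that couple, transmit or end adrenergic signals, 108 genes were measured. Calls were equally many in each direction, with 14 genes (13.0%) higher in Scf-GFP+ cells and 14 (13.0%) lower. The background was 9.01% and 7.89%, and arrays did not overlap for 53.7% of the 108 genes, beside 45.4% of all genes. These shares are not far from the background, and the lists were chosen with earlier results known. The median difference over the 108 genes was -0.04, beside -0.08 for all genes. In 4 of the lists some members rose and others fell.

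**Figure D3:**
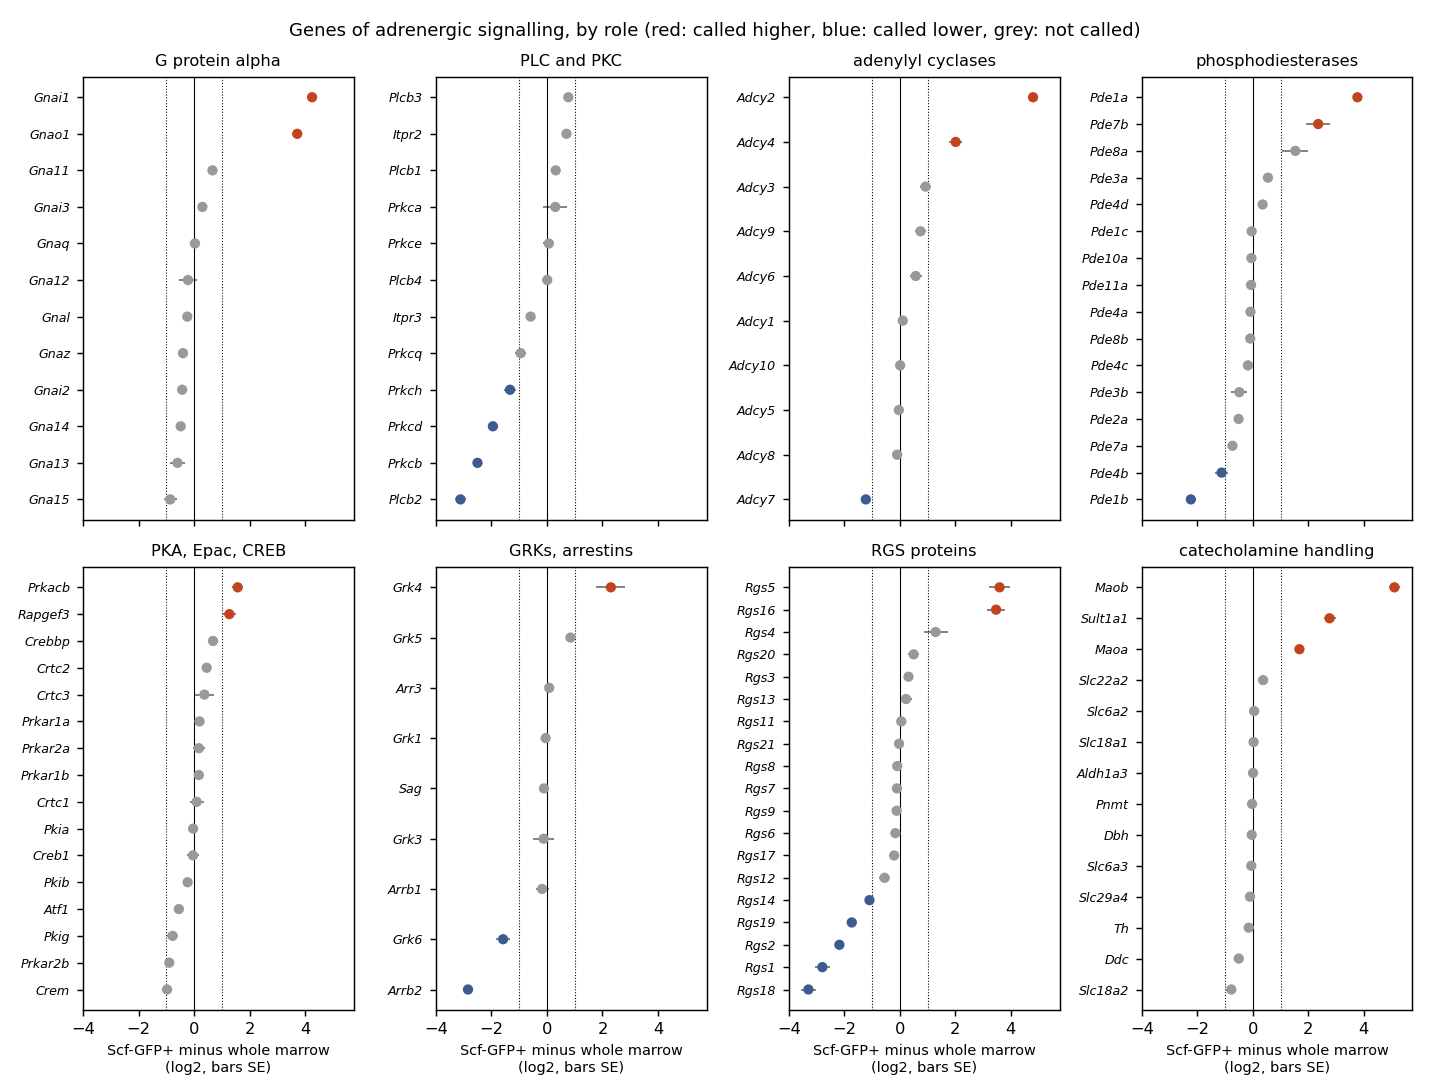
Difference Scf-GFP+ minus whole bone marrow (log2, horizontal axis) with limma's SE for each of the 108 measured genes of adrenergic signalling, in 8 panels by role. Red points were called higher (14 genes), blue points lower (14 genes) and grey points neither (80 genes), and dotted lines mark the 2-fold minimum.

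Among the G protein alpha subunits, which link receptors to enzymes, those of the Gi and Go class that alpha-2 receptors use gave both calls. Gnai1, a Gi subunit, measured 9.59, 9.78 and 10.15 in Scf-GFP+ cells against 5.54, 5.40 and 5.82 in whole marrow, a 19.1-fold rise (4.25 ± 0.18 SE, limma adjusted p = 1.33e-05). Gnao1, the Go subunit, measured 9.81, 10.22 and 10.45 against 6.63, 6.38 and 6.31, a 13.2-fold rise (3.72 ± 0.19, adjusted p = 2.4e-05). All Scf-GFP+ arrays lay above all whole marrow arrays for both genes. Fold values here and below are those of the array values. Whole marrow levels of Gnai1, and of Adcy2, Pde1a and Maob described below, were about as low as those of the receptor genes or lower, so the ratio of their transcripts may be larger. The same holds for Grk4 in whole marrow (mean 4.34). It also holds in Scf-GFP+ cells for Rgs18 (4.61), Rgs1 (4.87), Pde4b (5.52) and Prkch (5.73), all described below. Gnai2, the Gi subunit abundant in blood cells, was not called at -0.43 ± 0.14 (adjusted p = 0.0595), nor was Gnai3 at 0.30 ± 0.13 (adjusted p = 0.140).

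The Gq class that alpha-1 receptors use was not called. Gnaq differed by 0.03 ± 0.19 SE (limma adjusted p = 0.920), with means of 8.48 ± 0.07 (SD, n = 3) for Scf-GFP+ cells and 8.45 ± 0.37 (SD, n = 3) for whole marrow. Gna11 was higher in all 3 Scf-GFP+ arrays, by 0.66 ± 0.18 (adjusted p = 0.0345). Gna15, a subunit of blood cells, was lower in all 3, by -0.86 ± 0.24 (adjusted p = 0.0393). Gna14 was also lower in all 3, by -0.48 ± 0.12 (adjusted p = 0.0236), at low means of 5.33 and 5.82. Each of these missed the 2-fold minimum. Of 12 alpha subunits measured, limma called 2 higher and 0 lower (3 lower at an unadjusted p below 0.05). Without whole marrow replicate 3 the lower calls became 1.

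The phospholipase C and protein kinase C genes downstream of Gq were called in 1 direction. Of 12 measured, limma called 0 higher (2 at an unadjusted p below 0.05) and 4 lower. Plcb2, the phospholipase C beta isoform of blood cells, measured 7.19, 6.79 and 6.56 in Scf-GFP+ cells and 9.77, 9.82 and 10.30 in whole marrow, a fall of 8.68-fold (-3.12 ± 0.21 SE, limma adjusted p = 9.15e-05). Prkcb, a protein kinase C that acts in B cell receptor signalling, measured 6.87, 6.93 and 6.83 against 9.02, 9.50 and 9.63 (-2.51 ± 0.17, adjusted p = 9.12e-05). Prkcd fell by 1.95 on the log2 scale (SE 0.13). Prkch differed by -1.33 ± 0.22 on the row that stands for it, while its second, dimmer row gave 0.77 ± 0.81, so that with the mean of both rows it was not called (-0.28, limma adjusted p = 0.697, from 0.00262 to 0.697 over the alternatives). Plcb4 was the least changed member at 0.01 ± 0.19. Plcb3 and Itpr2, a calcium release channel, were higher in every Scf-GFP+ array, by 0.77 ± 0.14 (adjusted p = 0.00748) and 0.70 ± 0.15 (adjusted p = 0.0152), below the 2-fold minimum.

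Pan-blood markers moved with these lower calls. All 8 were called lower, their mean log2 level running from 5.93 to 7.02 in Scf-GFP+ cells and from 10.05 to 10.41 in whole marrow. Their part in the lower calls of Plcb2, Prkcb, Prkcd, Arrb2 and the blood cell regulators named below was not tested. Lower calls in the phospholipase C and protein kinase C list ran from 3 to 5 over the 14 alternatives, with 4 in 9 of them. Over single arrays left out they ran from 4 to 5, with 5 without Scf-GFP+ replicate 1, the array with neutrophil transcripts.

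**Figure D4:**
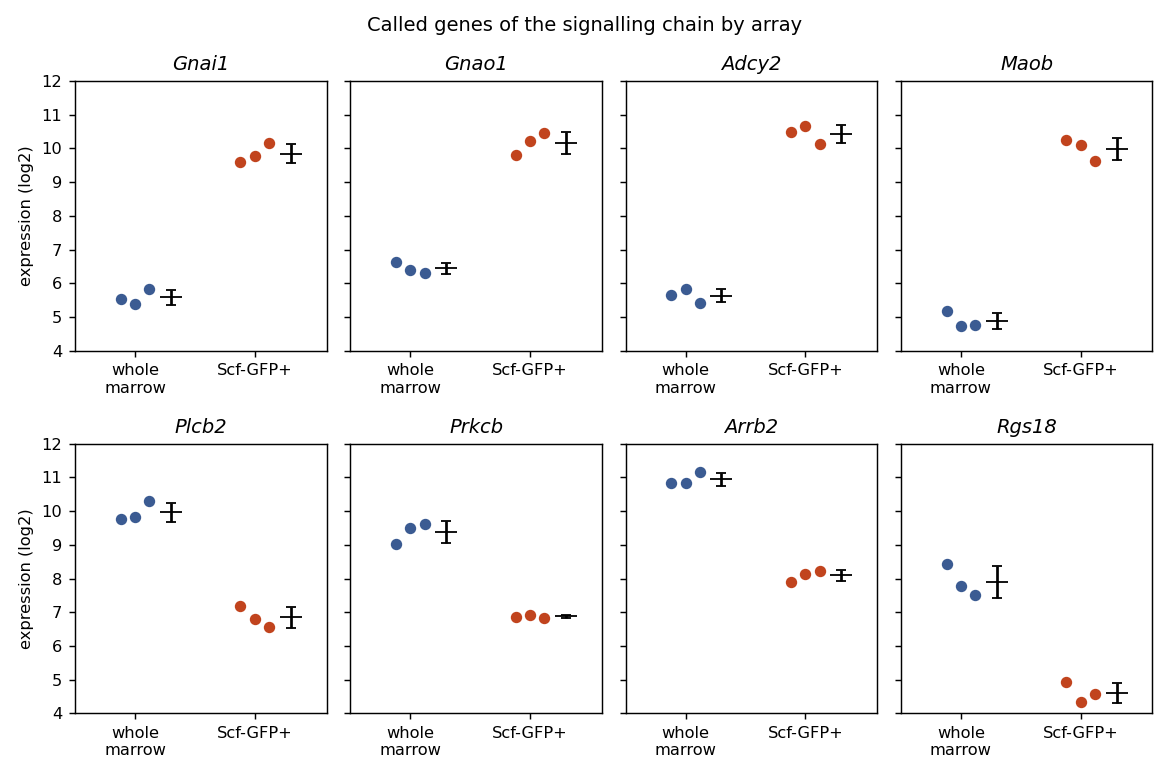
Deposited log2 expression on each array (points) of 4 signalling genes called higher in Scf-GFP+ cells (top row: Gnai1, Gnao1, Adcy2 and Maob) and 4 called lower (bottom row: Plcb2, Prkcb, Arrb2 and Rgs18), with whole marrow in blue, Scf-GFP+ in red and the mean and SD of each group in black. The groups do not overlap for any of the 8 genes.

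Adenylyl cyclases, the enzymes that make cyclic AMP and that Gi proteins restrain and Gs proteins stimulate, were called in both directions. Adcy2 measured 10.50, 10.66 and 10.14 in Scf-GFP+ cells and 5.65, 5.82 and 5.43 in whole marrow, a 27.8-fold rise (4.80 ± 0.17 SE, limma adjusted p = 7.17e-06). Adcy4 rose by 2.01 ± 0.23 (adjusted p = 0.000854). Adcy7, an isoform prominent in blood cells, went the other way, from 8.37, 8.64 and 8.46 in whole marrow to 7.28, 7.25 and 7.26 (-1.23 ± 0.11, adjusted p = 0.000304). Of 10 cyclases, 2 were called higher and 1 lower, and Adcy10, the soluble cyclase, was the least changed at 0.01 ± 0.13. The higher calls became 3 without Scf-GFP+ replicate 1 or with the sex-linked term.

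Among the phosphodiesterases, which break cyclic AMP down, close relatives moved in opposite directions. Pde1a, a calcium-activated isoform, measured 7.78, 8.24 and 8.01 in Scf-GFP+ cells and 4.35, 4.14 and 4.22 in whole marrow (3.77 ± 0.15 SE, limma adjusted p = 9.26e-06). Its close relative Pde1b fell, from 8.62, 8.53 and 8.07 to 6.36, 5.97 and 6.19 (-2.23 ± 0.18, adjusted p = 0.000203). Pde7b rose by 2.36 ± 0.44 (adjusted p = 0.00805), with whole marrow arrays as far apart as 6.07 and 7.84, and lost the call with the sex-linked term (adjusted p = 0.0971, from 0.00239 to 0.0971 over the alternatives). Pde4b differed by -1.13 ± 0.24 (adjusted p = 0.0134), and by -1.12 ± 0.36 with the sex-linked term. Pde4b also lost the call with that term (adjusted p = 0.101) and without whole marrow replicate 1 (-0.93) or 3 (adjusted p = 0.0519), and its adjusted p ranged between 0.00366 and 0.101 under the alternatives. Of 16 measured, 2 were called higher (3 without Scf-GFP+ replicate 3 or whole marrow replicate 3) and 2 lower, and Pde1c, the least changed, differed by -0.04 ± 0.11.

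Downstream of cyclic AMP the changes were smaller. Of 16 genes of protein kinase A, the cyclic AMP exchange factor Epac and the CREB family, 2 were called higher and 0 lower (4 lower at an unadjusted p below 0.05). Prkacb, a catalytic subunit of protein kinase A, measured 9.59, 9.50 and 9.35 against 7.56, 8.30 and 7.86 (1.57 ± 0.20 SE, limma adjusted p = 0.00146). Rapgef3, which encodes Epac, rose by 1.27 ± 0.23 (adjusted p = 0.00740). The transcription factor Crem, itself induced by cyclic AMP, was lower in every Scf-GFP+ array by -0.97 ± 0.15 (adjusted p = 0.00374), just under the 2-fold minimum, and Creb1 differed by -0.04 ± 0.21. The inhibitor Pkia was the least changed at -0.03 ± 0.10. Leaving out Scf-GFP+ replicate 2, or whole marrow replicate 1 or 3, gave 1 lower call.

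Receptor kinases and arrestins silence an activated receptor, and here the few calls went in both directions. Arrb2, beta-arrestin of the second type, measured 7.91, 8.15 and 8.23 in Scf-GFP+ cells and 10.82, 10.83 and 11.18 in whole marrow, a fall of 7.20-fold (-2.85 ± 0.15 SE, limma adjusted p = 2.64e-05). Its partner Arrb1 overlapped between the groups at -0.18 ± 0.24 (adjusted p = 0.627). Grk6, a receptor kinase, fell by 1.58 on the log2 scale (SE 0.26) and lost the call with the sex-linked term (adjusted p = 0.0687, from 0.00226 to 0.0687 over the alternatives). Grk4 was called higher on widely spread values, 7.90, 5.69 and 6.33 against 4.21, 4.51 and 4.30 (2.30 ± 0.52, adjusted p = 0.0182). Without whole marrow replicate 1 or 3 Grk4 was not called (adjusted p = 0.0618 and 0.0611), nor with the sex-linked term (adjusted p = 0.163). Its adjusted p ranged between 0.00398 and 0.163 under the alternatives, and without Scf-GFP+ replicate 1 its difference was 1.67. Of 9 genes measured, 1 was called higher and 2 lower, and Grk1, a kinase of the retina, was the least changed at -0.05 ± 0.11.

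Regulators of G protein signalling (RGS proteins) speed the shut-off of Gi and Gq subunits, and members changed in both directions. Rgs5, known from pericytes, measured 10.01, 9.98 and 8.66 in Scf-GFP+ cells and 5.72, 5.81 and 6.35 in whole marrow, a 12.1-fold rise (3.59 ± 0.39 SE, limma adjusted p = 0.000730). With the sex-linked term the rise of Rgs5 was smaller, at 2.70 on the log2 scale (adjusted p = 0.00191, from 0.000134 to 0.00529 over the alternatives). Rgs16 measured 9.65, 10.85 and 10.91 against 7.17, 6.88 and 6.96 (3.47 ± 0.34, adjusted p = 0.000454). Rgs18, a regulator of platelets and their precursors, fell from 8.44, 7.77 and 7.51 to 4.92, 4.33 and 4.57 (-3.30 ± 0.27, adjusted p = 0.000194). Rgs1, known from lymphocytes, fell by 2.80 on the log2 scale (SE 0.27), and Rgs2, Rgs19 and Rgs14 were also called lower, at -2.18, -1.74 and -1.10. Of 19 measured, 2 were called higher (3 without Scf-GFP+ replicate 3) and 5 lower, and Rgs21 was the least changed at -0.03 ± 0.10. Of 8 smooth muscle markers, 3 (Mylk, Des and Smtn) were called higher beside Rgs5 and 5 were not called. Of the uncalled, Myh11 (0.85 ± 0.14), Tagln (0.64 ± 0.44) and Lmod1 (0.07 ± 0.13) were above 0. Acta2 (-0.65 ± 0.34) and Cnn1 (-0.22 ± 0.10) were below 0. The mean log2 level over all 8 markers ran from 7.22 to 7.65 in Scf-GFP+ cells and from 6.63 to 6.67 in whole marrow, and their part in the rise of Rgs5 was not tested.

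Among genes that make, carry or destroy catecholamines, the 3 calls, each higher, were of enzymes of breakdown. Maob, monoamine oxidase B, measured 10.26, 10.10 and 9.62 in Scf-GFP+ cells and 5.17, 4.74 and 4.75 in whole marrow, a 34.4-fold rise (5.10 ± 0.21 SE, limma adjusted p = 1.12e-05). Maoa, the form that prefers noradrenaline and serotonin, measured 7.59, 7.66 and 7.48 against 5.63, 5.81 and 6.24 (1.68 ± 0.17, adjusted p = 0.000568). Sult1a1, a sulphotransferase of phenols, rose by 2.77 ± 0.22 (adjusted p = 0.000159). These enzymes also act on many other amines and phenols.

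The synthesis and uptake genes were not called. Th, the rate-limiting enzyme of catecholamine synthesis, differed by -0.15 ± 0.11 SE (limma adjusted p = 0.390), Dbh, which makes noradrenaline, by -0.04 ± 0.10 (adjusted p = 0.808), and Slc6a2, the noradrenaline transporter, by 0.05 ± 0.12 (adjusted p = 0.799). Slc18a2, which loads amines into vesicles, was lower in every Scf-GFP+ array at -0.77 ± 0.18 (adjusted p = 0.0181), below the 2-fold minimum. Aldh1a3 was the least changed at 0.01 ± 0.10. Of 14 measured, 3 were called higher and 0 lower (2 lower at an unadjusted p below 0.05). Of 8 Schwann cell and neuron markers, 1 was called higher, S100b (4.28 ± 0.28), while 6 differences were below 0 and the median was -0.13. Mbp, a myelin protein, was the lowest at -0.76 ± 0.17 (adjusted p = 0.0184). The mean level over these 8 markers ran from 6.74 to 7.01 in Scf-GFP+ cells and from 6.48 to 6.50 in whole marrow. It includes S100b, with means of 10.37 and 6.08, and so does not show that the set as a whole was higher. Fat cell and thermogenic markers, some of which beta receptors regulate in fat, gave 2 higher calls (Adipoq and Fabp4) and 1 lower (Pnpla2) of 12. The other 9 were not called. Of the 12 differences 8 were below 0, and their median was -0.16, beside -0.08 for all genes tested.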

How the data were processed

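Expression was deposited as log2 values, 1 table of 28940 rows on 6 arrays. RMA, affy and limma are named per the submitters' processing notes, without versions or roles; the sources used here name no build or annotation version. The log2 values were used as deposited. Of the rows, 21789 had 1 gene symbol, 1621 several and 5530 none. Symbols were updated by Entrez identifier (RefSeq table of GRCm38.p6; 91 rows not found kept theirs), and for 999 genes with several rows the row of highest mean stood for the gene, leaving 19938. Groups were compared with limma 3.58.1 (lmFit, eBayes, no covariates) in R 4.3.3, and intervals use its moderated variance. Every adjusted p is Benjamini-Hochberg over all genes tested. The fit was tested on simulated data. The members and lists were chosen with earlier results of these data known. Named genes are the receptors, up to 4 called members per list by absolute difference, the least changed member, and the 3 genes nearest to the receptor with the larger difference. The other genes named were chosen after their values were seen. Alternatives were the variance model, array weights, equal medians, a filter on dim genes, the row rule, all rows tested, a replicate block, a sex-linked term and leaving out each array. Same-numbered arrays were not paired, with correlations of deviations from -0.06 to 0.07.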

Additional observations from a re-analysis of the deposited data

How the results depend on the processing

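Neither receptor gene was called under any of the 13 alternative fits that gave it a value. Leaving out the dimmest 30% of genes removed both. The sign of their differences did change. Adra1b was -0.0875 with a term for the sex-linked split and from -0.0583 to 0.1611 over single arrays left out, being below 0 without Scf-GFP+ replicate 2 alone. Adra2c was 0.0619 with that term and from -0.0744 to 0.0360 over single arrays left out, being above 0 without Scf-GFP+ replicate 2 alone. With the replicate number as a block the differences were 0.08 and -0.03, and the block changed no receptor call. With the sex-linked term, which in effect sets Scf-GFP+ replicate 3 against whole marrow, phosphodiesterases had 1 higher and 1 lower call, receptor kinases and arrestins 0 higher and 1 lower, and the protein kinase A list 1 lower. Equal array medians also gave the protein kinase A list 1 lower call. The filter on dim genes left 0 higher calls among receptor kinases and arrestins, because Grk4 was removed. Over single arrays left out, higher calls ran from 0 to 1 for receptor kinases and arrestins, and lower calls from 0 to 1 for G protein subunits, from 1 to 2 for phosphodiesterases and from 0 to 1 for the protein kinase A list. Except where a removed gene is named, the cause was not tested. Both receptor genes are dim, where array ratios may be compressed.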
